A study of Mus musculus with 45 samples.

Results

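A set of 79 protein-coding genes with lowered RNA in 2-cell-like cells was followed through mouse embryonic stem cell (mESC) cultures with intact, removed or inhibited EHMT2. The members were all genes of the 55401 in the gene tables that met 4 conditions. They were protein-coding. Their mean in sorted DMSO-treated mESCs was at least 100 normalized counts. The ratio of 2-cell-like cells to mESCs under DMSO, taken after adding 1 to each mean, was at most 0.25. Their symbols did not begin with Col, Pcdh or Rhox. The required mESC level was reached by 8389 protein-coding genes, and 1 further gene with a low enough ratio, Pcdh1 (182.9 in mESCs, 24.9 in 2-cell-like cells), was left out by its name. The members were thus chosen by the measured DMSO means of sorted mESCs and 2-cell-like cells, and these values are given below as a description, without a test.

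The sorted cells were mESCs of the KH2 line (BL6/129, an F1 of C57BL/6J and 129S1), in which the endogenous Ehmt2 gene carries a degron tag with mCherry and a MERVL-gfp reporter plasmid was added. They received DMSO or the degrader dTAG-13 for 72 h and were separated into GFP-positive cells, here called 2CLCs, and GFP-negative cells, here called mESCs, with 3 libraries per group that carry no clone label. Unsorted EHMT2-dTAG-mcherry cultures of the clones E2-17, E2-20 and E2-K71 received DMSO or dTAG-13 for 24 h or 7 d in a time course, and DMSO or dTAG-13 for 15 d, or 7 d of dTAG-13 followed by 8 d of washout (Recovery), in a further experiment. All of these cells carried the degron allele, controls included. In the Dppa4 experiment, J1 wild-type (WT) and DPPA4KO (KO) cells received DMSO or the EHMT1/2 inhibitor UNC0638 for 48 h, with 3 libraries per group. All lines grew in serum and LIF on mouse embryonic fibroblast feeders. The sorted, time course and washout tables hold 1 authors' mean per group, so for them no spread, test or depth can be given, and a difference between means is described only. The Dppa4 experiment has a value per library, and its labels name 3 independent clones without saying which library is which, so that its p-values measure the spread between these libraries.

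2CLCs are a rare state that arises in mESC cultures and resembles the 2-cell embryo in part. They transcribe the endogenous retrovirus MERVL and genes such as the Zscan4 family, and the factors DUX, DPPA2 and DPPA4 promote the state. EHMT2 places the repressive mark H3K9me2.

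The sort was checked first. MERVL-int had a mean of 6891 in DMSO mESCs and 1643468 in DMSO 2CLCs, and of 78865 and 3256077 with dTAG. The summed level of 17 measured 2-cell-like markers was 1290 in DMSO mESCs and 218686 in DMSO 2CLCs, so the gates held the labelled states. The summed level of 25 naive pluripotency markers was 91226 in mESCs and 62925 in 2CLCs. The 11 defining fibroblast markers summed to 489 in DMSO mESCs and 1100 in DMSO 2CLCs, with Thy1 at 143.5 and 560.5, while the whole list of 31 fibroblast markers summed to 11274 and 8269, the opposite order, and no member stood on the fibroblast marker list. Whether feeder cells had a part in any member's ratio was not tested.

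Promoters are shown first for 4 members on which the later results turn. Inhbb has the largest absolute drop in mean level among the genes with the lowest ratios, and Grin1, Klhdc7a and Xaf1 passed 2-fold or were called in more than 1 comparison. Each line gives the 250 bases before the RefSeq start (GRCm38.p6), 5′ to 3′ on the strand of the gene, with CG dinucleotides in capitals. The windows are chr1:119422249-119422498 (minus) for Inhbb, chr2:25319188-25319437 (minus) for Grin1, chr4:139968027-139968276 (minus) for Klhdc7a and chr11:72301379-72301628 (plus) for Xaf1.
Inhbb: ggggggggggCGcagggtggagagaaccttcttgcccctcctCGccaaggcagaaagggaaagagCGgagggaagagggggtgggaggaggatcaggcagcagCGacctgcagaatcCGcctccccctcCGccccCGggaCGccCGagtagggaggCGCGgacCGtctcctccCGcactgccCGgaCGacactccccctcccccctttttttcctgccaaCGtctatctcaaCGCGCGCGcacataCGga
Grin1: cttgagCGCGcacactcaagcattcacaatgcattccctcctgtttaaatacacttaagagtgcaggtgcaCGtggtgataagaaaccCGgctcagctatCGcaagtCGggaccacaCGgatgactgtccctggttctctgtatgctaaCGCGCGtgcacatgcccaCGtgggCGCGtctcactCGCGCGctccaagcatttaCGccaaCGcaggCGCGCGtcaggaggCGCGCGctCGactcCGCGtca
Klhdc7a: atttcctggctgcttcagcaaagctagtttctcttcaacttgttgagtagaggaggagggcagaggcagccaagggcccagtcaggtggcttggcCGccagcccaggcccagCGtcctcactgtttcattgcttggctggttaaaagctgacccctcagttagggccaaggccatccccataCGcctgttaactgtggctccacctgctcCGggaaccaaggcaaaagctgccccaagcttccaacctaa
Xaf1: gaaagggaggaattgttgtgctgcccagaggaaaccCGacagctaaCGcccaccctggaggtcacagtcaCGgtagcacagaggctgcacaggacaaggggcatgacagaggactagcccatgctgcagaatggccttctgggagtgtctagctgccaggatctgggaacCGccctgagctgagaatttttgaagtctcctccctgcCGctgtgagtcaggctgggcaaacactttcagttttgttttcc
The windows of Inhbb and Grin1 held 21 and 27 CG dinucleotides, while those of Klhdc7a and Xaf1 held 4 and 5. Both kinds occurred across the set. RefSeq promoters were matched for 55 of 79 members, and an observed-to-expected CG ratio of at least 0.6 was present in 30 of them (54.5%), against 77.4% of 6649 other protein-coding genes at the same mESC level and 34.5% of all 27025 promoters. The median ratio was 0.69, 0.78 and 0.38 in the same order. Of the motifs searched on both strands, TATAAA, the core of the TATA box, was found in 10.9% of members, 5.02% of the other genes at that level and 12.97% of all promoters. TGAGTCA, the AP-1 site, was found in 5.45%, 2.42% and 4.43%, and one copy lies in the Xaf1 window. The remaining motifs were less frequent in members than in the other genes at that level, namely GGGCGG (58.2% and 64.8%, with 32.9% of all promoters), CCAAT (25.5% and 37.6%, with 34.5%), GGAATG (7.27% and 9.96%, with 12.6%) and CACGTG (5.45% and 9.17%, with 6.05%), and ATGCAAAT, the octamer of OCT factors, had no match in members (1.22% and 1.61%). These shares describe the windows and were not tested.

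In DMSO the members kept between 12.2% and 24.97% of their mESC level in 2CLCs (median 21.8%), which is a fold of 4.00 to 8.21 (median 4.58). The rule thus gathered lowered genes and not silenced ones. Of 8380 protein-coding genes at this level with a permitted name, 30 had a ratio of at most 0.2, 9 of at most 0.15 and 0 of at most 0.1. Across all 12384 protein-coding genes with a mean of at least 20 over the sorted groups, 9.24% were at least 2-fold lower in 2CLCs under DMSO. The cut at 0.25 is not a break in the distribution. Just inside it were Zfp365 (0.248), Kif5a (0.249) and Hrk (0.2497), and just outside were Grhl3 (211 to 52.0), Trim2 (295 to 73.1) and Anp32a (687 to 172). At the level threshold, 4931414P19Rik, Ctdspl and Lrriq4 were inside with means of 105, 105 and 113, and Nt5c, Tmem198 and Syt7 were outside with 99.9, 97.1 and 95.7.

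The lowest ratio belonged to Kbtbd11, whose mean was 240 in mESCs and 28.3 in 2CLCs, 8.21-fold lower. Pnma2, a paraneoplastic antigen gene, went from 373 to 49.1 (7.46-fold), and Inhbb, the activin and inhibin beta-B subunit, from 2744 to 371 (7.38-fold). The organic anion transporter family gene Slco5a1 (121 to 16.3), Gm13889 (115 to 15.6) and the peptide hormone gene Insl3 (124 to 17.0) followed at 7.04-fold, 6.98-fold and 6.95-fold. These 3 were low-level genes, and their 2CLC means were among the smallest of the set. Fignl2 (834 to 120, 6.88-fold), Olig2 (1042 to 154, 6.71-fold), Sox1 (1221 to 181, 6.70-fold) and the fucosyltransferase Fut9 (541 to 86.7, 6.18-fold) completed the 10 lowest ratios. The highest mESC levels were those of the actin nucleator Cobl (3092 to 687), Zdbf2 (2875 to 671) and Inhbb. Trp53i11 (1183 to 215), the Hedgehog receptor Ptch1 (1006 to 228), the trophoblast and germ cell factor Tfap2c (934 to 228) and the calpain Capn5 (897 to 188) were also in the upper range. Levels are not scaled for transcript length and were not compared between genes beyond this order.

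**Figure D1:**
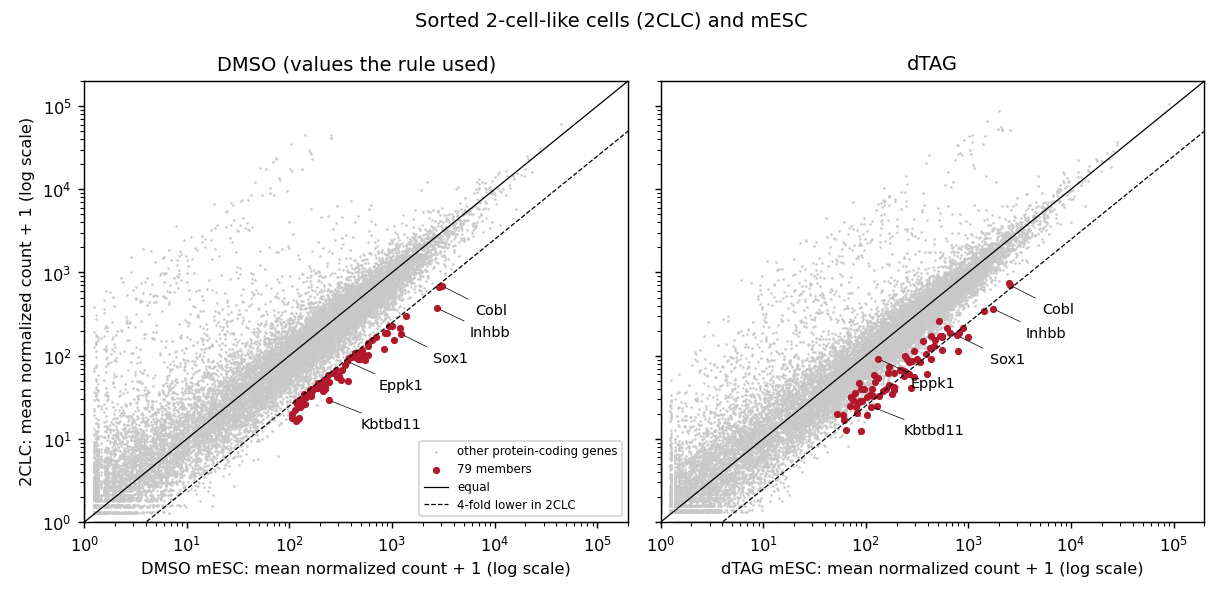
Authors' mean normalized counts of the 79 members in sorted mESCs (x axis, log scale) and 2CLCs (y axis, log scale) with DMSO and with dTAG. Every member lies below the line of equal levels in both treatments, and no DMSO ratio is under 0.1.

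With dTAG, cells that the rule did not use, all 79 members were again lower in 2CLCs than in mESCs. At least 2-fold lower were 76 of 79, against 6.5% of 12384 genes tested, and at least 4-fold lower were 26, against 0.396%. None was at least 2-fold higher, against 9.91%. The median log2 ratio of the members was -1.76, with a range of -2.83 to -0.54, and that of all genes was -0.12. The fold had a median of 3.39 and a range of 1.45 to 7.12. These were separate libraries of the same reporter line and not a separate line.

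The bHLH factor Olig2, an oligodendrocyte and motor neuron regulator, went from 796 to 112 with dTAG (7.04-fold) and Trp53i11 from 1000 to 167 (5.95-fold). AI467606 (88.4 to 11.5, 7.12-fold), Pnma2 (272 to 40.01, 6.66-fold) and Fignl2 (398 to 59.8, 6.56-fold) were the other members with the lowest dTAG ratios. Olig2, Pnma2 and Fignl2 were thus among the lowest in both treatments. The weakest ratios were those of the cytolinker Eppk1 (132 to 90.4, 1.45-fold), the endocytic GTPase Dnm1 (84.8 to 46.4, 1.81-fold) and the proteoglycan Vcan (514 to 260, 1.97-fold), the 3 members under 2-fold. Igsf21 (120 to 57.0) and the potassium channel Kcnh3 (77.7 to 34.9) stood just beyond at 2.09-fold and 2.19-fold.

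The members were placed in role groups after they were known, so the groups are only an order of description. The 9 transcription factors had a median fold of 5.07 with DMSO and 3.49 with dTAG, and all 9 were at least 2-fold lower with dTAG. Sox1, a neural factor, went from 777 to 174 with dTAG, Zic2, a zinc finger factor of the neural tube and the epiblast, from 460 to 131, and Otx2, a factor of the formative epiblast and forebrain, from 186 to 60.3. Their DMSO means were 1221 and 181, 455 and 97.7, and 210 and 36.7. Sox1, Zic2, Otx2 and Tfap2c belonged to a list of 62 lineage transcription factors, of which 16 reached 100 in DMSO mESCs. Of those 16, 9 were at least 2-fold lower in 2CLCs with DMSO and 7 with dTAG, and 0 and 1 were at least 2-fold higher. Of all 8380 genes at that level, 789 (9.42%) were lower and 331 higher with DMSO, and 495 (5.91%) lower and 288 higher with dTAG, and the list counts below are to be read against these.

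Signalling genes formed a group of 13, with median folds of 4.58 and 3.26. Beside Inhbb (1740 to 364 with dTAG) it held Smad3, which transmits activin and TGF-beta signals (437 to 94.8 with DMSO, 363 to 148 with dTAG), Ptch1 (813 to 185 with dTAG) and the Apelin receptor ligand Apela (527 to 100 with DMSO, 468 to 154 with dTAG). Ligand, receptor and transducer genes were all represented. The list of TGF-beta, Nodal and BMP signalling had 19 genes at 100 or more, 6 of them at least 2-fold lower with DMSO and 5 with dTAG, and 1 higher in each treatment. Inhbb was the 1 member on it. Smad3 is not on this list, so the list does not cover the whole pathway.

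Among 12 genes of neuronal channels, receptors and transport were the glutamate receptor subunits Grik3 (401 to 95.1 with DMSO, 217 to 66.8 with dTAG) and Grin1 (189 to 40.03, and 126 to 24.0). The kinesin heavy chain Kif5a (160 to 39.1, and 135 to 31.5) and the teneurin Tenm3 (581 to 131, and 530 to 171) also belonged here. The median folds were 4.33 and 3.15, and 11 of 12 were at least 2-fold lower with dTAG. Junction, matrix and cytoskeleton genes (10 members, medians 4.45 and 3.82) held the connexin Gjb5 (289.6 to 54.9 with DMSO, 295 to 53.9 with dTAG). Of 42 extracellular matrix genes at 100 or more, 8 were at least 2-fold lower and 3 higher with DMSO, while with dTAG 4 were lower and 10 higher, so that with dTAG more genes of this list were higher than lower in 2CLCs. Vcan was its 1 member.

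Enzymes, carriers and transporters (11 members, medians 4.76 and 3.26) included Fut9, which makes the SSEA-1 carbohydrate of mESCs (555 to 116 with dTAG), the transglutaminase Tgm2 (584 to 101 with DMSO, 233 to 65.3 with dTAG) and Slc52a3, a riboflavin transporter (145 to 30.9, and 60.4 to 15.9). Fut9 was the 1 member on the naive pluripotency list, of whose 48 genes at 100 or more 21 were at least 2-fold lower with DMSO and 13 with dTAG, and 2 higher in each treatment. Tgm2 was the 1 member on the retinoid list, where 2 of 5 genes were lower and 1 higher in each treatment. Chromatin, transcription and DNA repair genes (5 members, medians 4.45 and 3.55) held the histone deacetylase Hdac7 (158 to 36.4, and 123 to 47.8) and the SWI/SNF subunit Bcl7a (466 to 90.9, and 338 to 82.3). Hdac7 was the 1 member on the chromatin list, where 5 of 43 genes were lower and 2 higher in each treatment. Cell death and interferon genes (3 members, medians 4.06 and 3.16) were the BH3-only gene Hrk, the XIAP-associated factor Xaf1 and the antiviral gene Shfl. The other 16 members, medians 4.98 and 3.57, were all at least 2-fold lower with dTAG.

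The lists of actomyosin, WNT, FGF and ERK, glycolysis and sterol genes held no member. These lists do not hold every gene of a role. Hif3a, of the hypoxia-inducible factor family, and the Ras-like gene Mras are members but stand on none of them. A list without a member thus does not mean that the set lacks genes of that role. Of 53 actomyosin genes at 100 or more, 5 were at least 2-fold lower and 2 higher in 2CLCs with DMSO, which is near the share of all genes, and 0 lower and 2 higher with dTAG. Of 28 FGF and ERK genes 7 were lower and 3 higher with DMSO, but 2 lower and 5 higher with dTAG. Of 13 WNT genes 3 were lower and 1 higher with DMSO, and 2 and 0 with dTAG. Of 30 glycolysis and hypoxia genes 8 were lower and 0 higher with DMSO, and 4 and 1 with dTAG. Sterol and lipid genes were below the share of all genes, with 1 of 29 lower and 0 higher in each treatment.

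In the genome the members had ordinary dimensions. The median gene span was 22331 bases, against 25425 for the other protein-coding genes at the same level, and the median joined exon length was 5134 and 4893 bases. No member lay on the X chromosome, which held 251 (3.02%) of the others. Within 100000 bases of each other lay 7 pairs of members. Lrrc34 and Lrriq4 on chromosome 3 share 3363 bases on opposite strands, and Insl3 lies wholly within the span of Jak3 on chromosome 8 on the same strand, sharing 1362 bases. The members of these 2 pairs cannot be taken as fully separate measurements. N4bp3 and D930048N14Rik start 112 bases apart on chromosome 11, and further pairs were Klhdc7a and Igsf21, Ccdc8 and Hif3a, and AI467606 and Qprt. Another annotated gene overlaps 33 members on the opposite strand, among them Grin1 and Otx2. The counting used the default strand setting of the tool, which the sources used here do not name. Reads of such partners could thus be counted together. On the same strand another annotated gene overlaps 21 members, among them Sox1, Ptch1 and Capn5, and a strand setting cannot separate these.

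EHMT2 removal was then compared within each sorted state. These ratios share a group with the rule, so that their direction is partly fixed by the choice of members. In sorted mESCs, 10 members were at least 2-fold lower with dTAG than with DMSO (1.26% of all genes) and 1 was higher (4.84%), with a median log2 ratio of -0.42 and 70 of 79 below 0, as were 46.2% of all genes. Aspg, an asparaginase (215 to 70.5), Eppk1 (360 to 132), Hif3a, of the hypoxia-inducible factor family (133 to 51.0), Tgm2 (584 to 233) and Slc52a3 (145 to 60.4) had the lowest ratios, from 0.331 to 0.420. Hrk, Kbtbd11, Kcnh3, Fignl2 and Kdelr3 were the other 5, with ratios of 0.436 to 0.487. The 1 higher member was Msc, a bHLH repressor also called musculin (185 to 435), and next in order were Hmces (1.13), Xaf1 (1.12), Ly6g6e (1.07) and Fut9 (1.03). Between the same DMSO and dTAG mESCs the 2-cell-like markers summed to 1290 and 12734, and the 11 defining fibroblast markers to 489 and 864. Their part in the ratios of the members was not tested.

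In sorted 2CLCs the median log2 ratio of dTAG to DMSO was 0.02. No member was at least 2-fold lower (1.01% of all genes) and 1 was higher (3.26%), again Msc (41.8 to 89.4). The lowest ratios were those of Fignl2 (0.501), AI467606 (0.523), Slc52a3 (0.530), Hrk (0.569) and Grin1 (0.609), and after Msc the highest were Vcan (1.86), Otx2 (1.63), Zfp365 (1.59) and Insl3 (1.58). The 2CLC means of the members had a median of 50.7 with DMSO and 59.8 with dTAG. Since the members were chosen for high DMSO mESC and low DMSO 2CLC means, nothing is read from the smaller folds with dTAG.

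**Figure D2:**
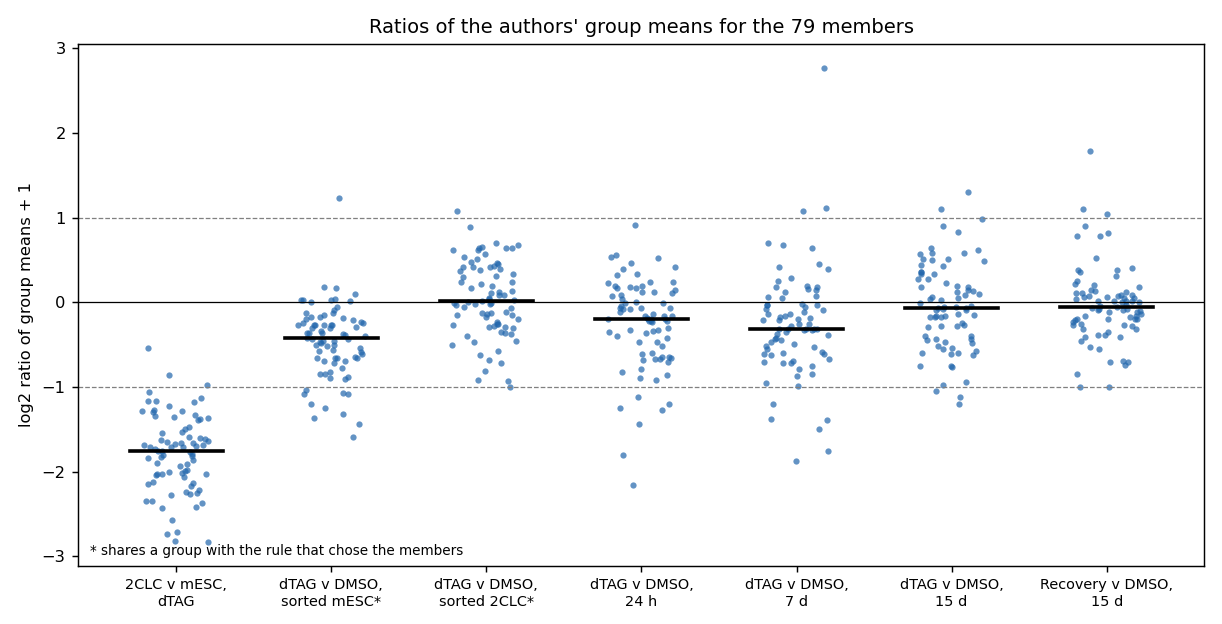
Log2 ratio of the authors' group means plus 1 (y axis) for each of the 79 members (points) in 7 comparisons, those below the level filter included, with black lines at the members' medians and dashed lines at 2-fold. The 2CLC to mESC ratios with dTAG lie around a median of -1.76, and the highest point, at 7 d, is Msc.

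In unsorted cultures, which mix both states, fewer cells of a type and less RNA per cell cannot be told apart. Of 79 members, 78 had a mean of at least 20 at 24 h and 7 d, Gm13889 being below. At 24 h, 6 members were at least 2-fold lower with dTAG (1.14% of all genes) and 0 higher (2.45%). They were Grin1 (631 to 141), Insl3 (54.8 to 14.9), the cytokine receptor kinase Jak3 (707 to 293), Klhdc7a (424 to 178), Ly6g6e (1060 to 461) and Tfap2c (968 to 447). The highest ratios were those of Slco5a1 (1.89), Zdbf2 (1.47), Asic1 (1.45), Ptch1 (1.44) and Fignl2 (1.38).

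The 24 h DMSO means of these 6 were also above those of the 7 d DMSO cultures, which were 176 for Grin1, 29.6 for Insl3, 370 for Jak3, 217 for Klhdc7a, 446 for Ly6g6e and 596 for Tfap2c. Between both DMSO groups, 4 members were at least 2-fold higher at 24 h (0.742% of all genes) and 0 lower (0.631%), namely Grin1, Msc, Ly6g6e and Xaf1. For all 6 the dTAG mean at 24 h was nearer to the 7 d control than to its own control. The part of the 24 h control in these differences was not tested.

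After 7 d, 6 members were lower (3.58% of all genes) and 3 higher (3.04%), with a median log2 ratio of -0.30. Klhdc7a (217 to 58.2), Aspg (364 to 107), Kcnh3 (182 to 63.9), Hif3a (517 to 197), Dnm1 (311 to 119) and Capn5 (1615 to 703) were lower. Aspg, Kcnh3 and Hif3a were the members lower by 2-fold both here and in sorted dTAG mESCs. How many of all genes were lower in both was not counted, and the sorted ratio shares its DMSO group with the rule. Nothing is therefore read from this overlap. Msc was higher (44.2 to 308, 6.83-fold), as were Zdbf2, an imprinted gene (1566 to 3405), and Zic2 (127 to 268). Msc had been lower at 24 h (111 to 71.9), so its order was not the same at both times. Next among the higher were Gjb5 (1.63) and Hmces (1.60). The 17 2-cell-like markers summed to 315 and 3401 at 24 h and to 465 and 10248 at 7 d, DMSO before dTAG, and the 11 defining fibroblast markers to 1918 and 2369, and 1611 and 2399.

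**Figure D3:**
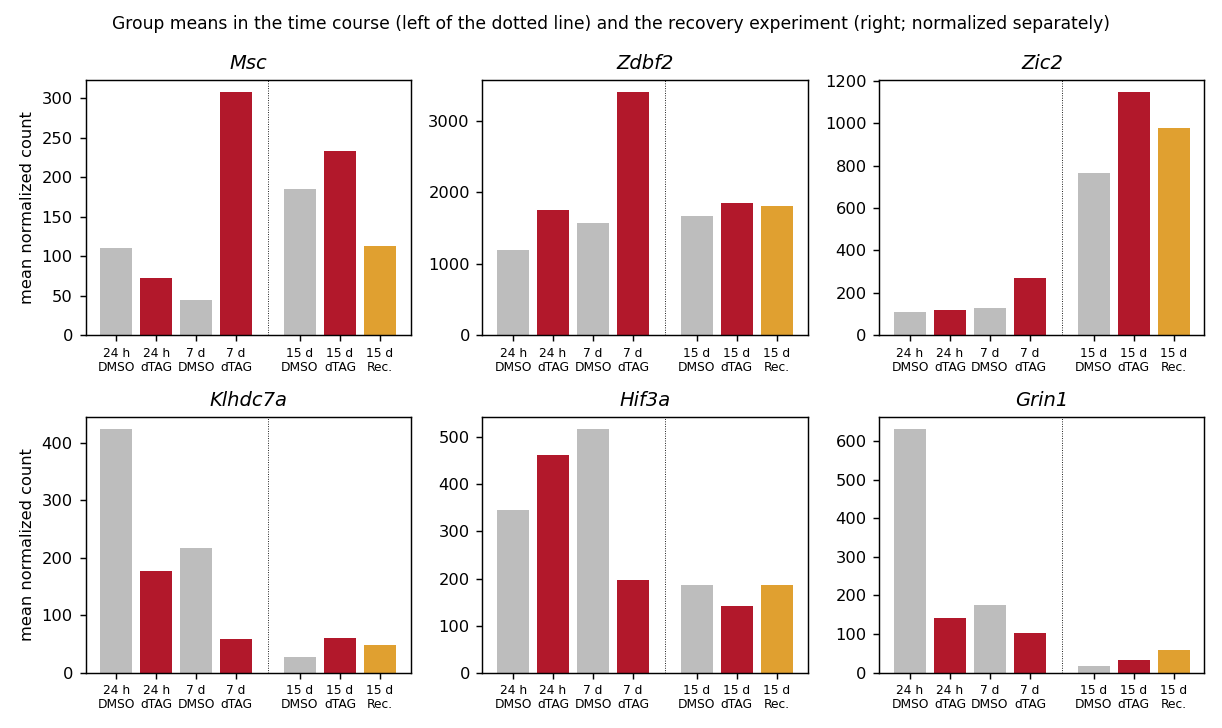
Authors' mean normalized count (y axis, linear from 0, 1 bar per group) of Msc, Zdbf2, Zic2, Klhdc7a, Hif3a and Grin1 in the unsorted cultures, with the time course left and the separately normalized washout experiment right of the dotted line. Msc goes from 44.2 to 308 at 7 d, and the 24 h DMSO bar of Grin1 (631) stands above all its other bars.

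At 15 d, 77 members could be compared, with a median log2 ratio of -0.05. Lower with dTAG were 3 (0.598% of all genes), Slc52a3 (61.5 to 26.3), Inhbb (787 to 361) and Cpne5 (216 to 104). Higher were 2 (2.97%), Ly6g6e (36.1 to 90.3) and Klhdc7a (27.6 to 60.5), and both had been lower at 24 h. Slc52a3 was the 1 member at least 2-fold lower both at 15 d and in sorted dTAG mESCs. After Ly6g6e and Klhdc7a, Grin1 (1.98), Trp53i11 (1.87) and Otx2 (1.77) had the highest ratios, and Hmces had the next lowest (0.507).

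Recovery cultures were compared with the same DMSO 15 d cultures, so that both comparisons share a control. Lower was 1 member (1.09% of all genes), Xaf1 (101 to 49.7), and higher were 3 (1.21%), Grin1 (16.5 to 59.2), Otx2 (133 to 287) and Ly6g6e (36.1 to 75.5). Otx2 was not nearer to its DMSO level in Recovery than with continued dTAG (237). Inhbb lay between, with 787 in DMSO, 361 in dTAG and 480 in Recovery, and Msc had 185, 234 and 113. The next lowest ratios were those of the Ras-like gene Mras (0.501), Cpne5 (0.557), Laptm5 (0.597) and Inhbb (0.611), and the next highest those of Lrrc34 (1.88) and Fut9 (1.76). The 2-cell-like markers summed to 806, 19373 and 1272 in these groups. The 11 defining fibroblast markers summed to 2923, 3877 and 1221.

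In the Dppa4 experiment the targeted gene matched the labels. Dppa4 had 700.4, 868 and 920.5 normalized counts in the WT DMSO libraries, and 0 in all 6 KO libraries. Of the 79 members, 76 passed the expression filter. Olig2, Insl3 and Dock8 did not, with at most 4, 19 and 6 reads in any library. Olig2 was at 0 in all 6 DMSO libraries, while its mean was 1042 in the sorted KH2 mESCs and 222 to 378 in unsorted DMSO cultures, each table with its own normalization. A gene was called when its Benjamini-Hochberg adjusted p from limma over 17258 genes was under 0.05 and its log2 fold change at least 1 in size.

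UNC0638 in WT cells called 0 members (0% of all genes), with a median log2 fold change of -0.14. At an unadjusted p under 0.05 there were 7 members by limma, 8 by edgeR and 8 by DESeq2. How many of all genes passed this unadjusted cut is not given for any contrast, so nothing is read from such member counts. The 2-cell-like markers summed to 131 to 2406 in the WT DMSO libraries and 1102 to 8812 with UNC0638. In KO cells UNC0638 also called 0 members, where 0.411% of all genes were called higher and 0.0521% lower, and the median was -0.24. There 14, 13 and 13 members had an unadjusted p under 0.05 by the 3 tools, among them Capn5 (log2 fold change -0.81), Zic2 (-0.95) and Zdbf2 (-1.31). Without the first KO UNC0638 library 5 members were called lower, Hif3a (-2.13), Clmn (-1.36), Tfap2c (-1.62), Tmem151b (-1.15) and Capn5 (-1.08). Calls over all genes were then 365, against 80 with that library, so calls also rose outside the members. The directions of the 365 are not given, and whether the members' share differed was not tested. Subtracting the WT effect of UNC0638 from its KO effect, the interaction, called 0 members (0% of all genes), with 3, 4 and 4 members at an unadjusted p under 0.05.

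Untreated KO cells differed from WT cells in these genes. Under DMSO 15 of 76 members rose in KO (1.33% of all genes) and 0 fell (3.1%), with a median log2 fold change of 0.59 for the members and -0.03 for all genes. All genes here are those that passed the expression filter, of any type, while the members are protein-coding and were chosen by level. The share among genes of like type and level was not computed. edgeR called 13 members and DESeq2 12, and the calls of these tools over all genes are not given here. By role, 4 of the 15 were among the 12 neuronal genes (Grin1, Grik3, Igsf21 and Kcnh3). A further 3 were among the 11 enzymes and carriers (Slc52a3, Ampd3 and Capn5), and 4 among the 16 others. The signalling, junction, chromatin and cell death groups had 1 each, and the 8 transcription factors tested had none. Those 8 had a median log2 fold change of 0.66, above that of the members, so their lack of calls is not read as a difference.

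Grin1 had 67.5, 40.6 and 50.7 normalized counts in the WT DMSO libraries and 508, 358 and 214 in KO, a log2 fold change of 2.68 (SE 0.36, limma adjusted p = 0.000667). Its lowest KO library lay well above its highest WT library. Slc52a3 had 114, 106 and 83.9 in WT and 273, 342 and 224 in KO (1.45, SE 0.26, limma adjusted p = 0.0042). Dapk1, a death-associated kinase, had 314, 353 and 233 in WT and 621, 691 and 664 in KO (1.15, SE 0.21, limma adjusted p = 0.00491). Gjb5 had 561, 282 and 379 in WT and 1016, 1167 and 871 in KO (1.37, SE 0.26, limma adjusted p = 0.00667). In none of these 4 did the groups overlap, and they were the members still called at an adjusted p of 0.01.

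Grik3 was at 1091, 381 and 403 in WT and 1905, 1494 and 1363 in KO (1.51, limma adjusted p = 0.0196), and Xaf1 at 471, 165 and 103 and 1039, 675 and 535 (1.84, limma adjusted p = 0.0349). Klhdc7a was at 336, 106 and 178 and 537, 826 and 443 (1.65, limma adjusted p = 0.0307). In each of these 3 the first WT library stood above the other two, though below every KO library. Capn5 (1.04), Lrriq4 (1.10), Igsf21 (1.49), Kcnh3 (1.28), Ampd3 (1.12), Gm13889 (1.75), Tmem151b (1.03) and Polr3gl (1.03) were the other called members, with limma adjusted p from 0.0165 to 0.0398. Past the adjusted p but not the fold were Inhbb at 2897, 2100 and 1998 in WT and 4124, 4489 and 3786 in KO (0.84, limma adjusted p = 0.0114), and Fignl2 (0.95), Laptm5 (0.81), Mras (0.73) and Trp53i11 (0.71). Ptch1 was the 1 such member in the other direction, at 662, 770 and 759 in WT and 413, 447 and 338 in KO (-0.88, limma adjusted p = 0.0294).

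**Figure D4:**
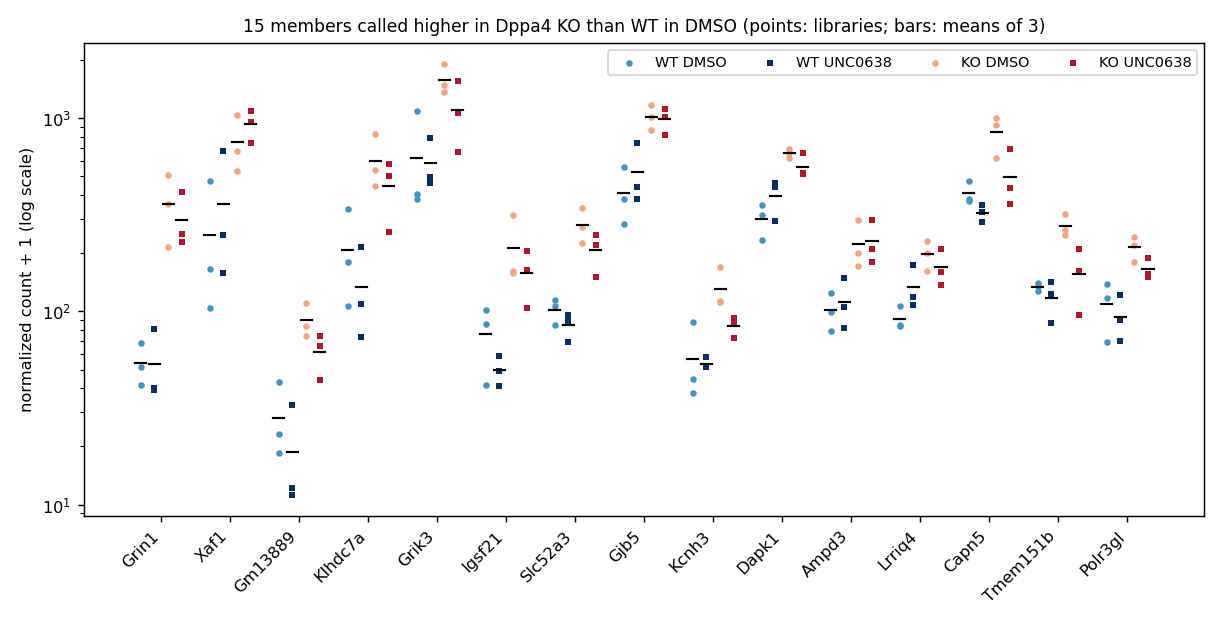
Normalized count plus 1 (y axis, log scale) of the 15 members called higher in KO, 1 point per library and a bar at each group's mean of 3, in WT and KO cells with DMSO and UNC0638. For Grin1 the KO DMSO libraries lie at 214 to 508 and the WT DMSO libraries at 40.6 to 67.5.

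Other RNAs moved with genotype. The 11 defining fibroblast markers summed to 2343 to 3299 in WT DMSO and 1225 to 1713 in KO DMSO, without overlap. The covariate was instead the sum of their log2 levels, 64.1 to 76.2 in WT DMSO and 55.0 to 63.2 in KO DMSO. With this covariate 0 members were called. Over all genes 13 were called with the covariate and 765 without it. The log2 fold changes of most called members were smaller with the covariate. Grin1 then had 1.84 (limma adjusted p = 0.174), Gm13889 1.13, Igsf21 1.01, Gjb5 0.75, Lrriq4 0.65 and Capn5 0.64. Polr3gl had 0.55, Xaf1 0.46, Kcnh3 0.44, Klhdc7a 0.38 and Grik3 0.36. Only Slc52a3 (1.49), Dapk1 (1.33), Ampd3 (1.46) and Tmem151b (1.13) were as large as or larger than without it. Their limma adjusted p with the covariate ran from 0.138 to 0.371. The naive markers summed to 85643 to 109499 in WT DMSO and 112049 to 117474 in KO DMSO. The 2-cell-like markers were at 3.23 to 20.1 in the KO libraries. Genotype and these marker levels cannot be told apart in this design. The count of 15 was 4, 5, 4 and 4 without the second WT, the third WT, the first KO and the second KO library under DMSO. Calls over all genes in these refits are not given here, so the drop is not read as particular to the members.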

How the data were processed

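The authors trimmed reads with Trim Galore 0.6.7, aligned them to mm10 with STAR 2.7.10 without introns, placed multi-mapping reads at 1 random position, counted GENCODE vM25 genes and repeats with TEcounts, and normalized with DESeq2 1.34.0 in R 4.1.0, per the paper's methods and the submitters' processing notes. Counting used the default parameters of the tool, strand included; what that default is was not given in the sources used here. The deposited signal values are counts that the authors divided by size factors; the sorted, time course and washout tables hold the authors' mean per group, and the Dppa4 experiment has values for 12 libraries. In the Dppa4 table whole reads were recovered in 100% of values (tolerance 0.01), with 8399885 to 12710949 gene reads per library; depth behind the group means is unknown. Deposited tables of the authors' own fold changes and p-values were not used.

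Means were compared as (mean + 1) ratios over protein-coding genes with a mean of at least 20. Shares of all genes in the sorted, time course and washout comparisons are thus shares of protein-coding genes. Those of the Dppa4 experiment cover genes of any type. limma 3.58.1 with a trend was fitted to log2 of the normalized count plus 1 (4 groups, all 12 libraries, edgeR 4.0.16 expression filter, Benjamini-Hochberg over 17258 genes), in R 4.3.3, and tested on simulated data. edgeR's quasi-likelihood test and DESeq2 1.42.0 on recovered reads were alternatives. Coordinates came from GENCODE vM21 (GRCm38) and promoters from RefSeq GRCm38.p6. Named members were those with the 10 lowest ratios and 10 highest levels, those at the thresholds, members of gene lists, the 5 highest and 5 lowest ratios per comparison of means, and called members. The values of 1 member are not reported here. Members and lists were chosen with earlier results of these data known.

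Same-numbered libraries of the WT DMSO and WT UNC0638 groups deviated together (correlation 0.10 to 0.43), while those of the KO groups (-0.09 to 0.15) and of both DMSO groups (-0.07 to 0.07) did not do so in every pair. The number thus looked like a pairing only between the WT groups, and the main fit used no replicate block. With the number as a block over all groups, or nested in genotype, UNC0638 in WT also called 0 members.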

Additional observations from a re-analysis of the deposited data

How the results depend on the processing

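Of 79 members chosen, 46 remained with 10 in place of 1 added to the means, 1 with the ratio limit lowered to its stricter alternative, and 789 genes qualified at 0.5. For dTAG 2CLCs against mESCs 76 members were lower, and 49 of 51 with a mean of at least 100. For dTAG against DMSO, members past 2-fold in sorted mESCs were 11, but 6 with a mean of at least 100 and 27 at 1.5-fold; in sorted 2CLCs 1, but 0 with 10 added, 2 after centring and 17 at 1.5-fold. At 24 h and 7 d they were 6 and 9, but 21 and 27 at 1.5-fold; at 15 d 5, but 2 with 10 added, 2 with a mean of at least 100 and 19 at 1.5-fold. For Recovery 4 became 2, 1 and 13 in that order. The counts at 1.5-fold are to be read against all genes. In sorted mESCs 1038 of 12384 genes were higher and 697 lower at 1.5-fold, and in sorted 2CLCs 959 and 691. At 24 h 844 of 12672 were higher and 663 lower, and at 7 d 952 and 1403. At 15 d 931 of 12883 were higher and 332 lower, and for Recovery 706 and 447. The causes were not tested beyond the change of threshold itself.

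Leaving out 1 library at a time gave 4 to 18 members called for KO against WT, 0 to 5 for UNC0638 in KO, and 0 in each refit for UNC0638 in WT and the interaction. The matching calls over all genes for KO against WT are not given, so this range says nothing about the members alone. KO against WT gave 4 at an adjusted p of 0.01 and 0 with the fibroblast covariate. The replicate block gave 16, adding Sox1, and changed no UNC0638 call. Of 330 refits of the 15 called members 243 kept their call, 87 lost it and 0 reversed. The group means carry no replicate error, and levels of 3 members in the J1 lines were too low to test.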

Other observations

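Level differences between cultures were wide for several members, each value being from a table with its own normalization. Sox1 had a DMSO mean of 182 at 24 h, 185 at 7 d and 1327 at 15 d, and of 1221 in sorted mESCs. Klhdc7a had 424, 217 and 27.6 in the unsorted DMSO cultures and 264 in sorted mESCs. Dock8 had 379 to 561 in the unsorted DMSO cultures and 114 in sorted mESCs, and between 0 and 6.98 in the 12 libraries of the J1 lines.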
